A study of Mus musculus with 12 samples.

Results

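The proteasome subunit and assembly genes are the 50 protein-coding mouse genes whose symbols begin with Psma, Psmb, Psmc, Psmd, Psme, Psmf or Psmg followed by a digit, out of 55573 genes in the count tables. They were chosen by symbol in the GENCODE annotation and found by Ensembl ID. By role they are 8 genes of the alpha ring, 3 catalytic and 4 other genes of the beta ring, 4 induced or thymic beta subunits, 6 ATPases and 3 other subunits of the base, 8 subunits of the lid, 4 chaperones of the core particle, 3 chaperones of the base, 5 activators and 1 inhibitor. The last of the 50 is Psmc3ip, which meets the symbol rule but encodes a partner of the meiotic recombinases and not a proteasome subunit. A list of 34 other genes of the pathway was read beside them.

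The proteasome is the protease that degrades proteins tagged with ubiquitin. Its core particle is a barrel of alpha rings, which gate the entry, around beta rings, which hold the active sites, while the regulatory particle at its end binds the tagged protein, removes the ubiquitin in the lid and unfolds the chain with the ATPases of the base. In oocytes the timed loss of cyclin B and securin by this route is known to drive the meiotic divisions.

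The study sequenced poly(A) RNA from mouse oocytes at the germinal vesicle (GV) stage, fully grown and still with an intact nuclear envelope, in whole oocytes and in fractions of an oocyte, the latter to show the effect of scaling by spike-in RNA. All 8 oocytes came from a B6D2F1 female aged 12 weeks and were collected into M2 medium with milrinone, which holds them in meiotic arrest. From 6 of them came whole-oocyte libraries, 2 each at 10, 14 and 18 cycles, while lysates of the other 2 were diluted to 1/2, 1/4 and 1/8 of an oocyte and amplified for 18 cycles, again with 2 libraries per group. RNA was captured with oligo-dT beads after ERCC spike-in RNA (External RNA Controls Consortium) was added, and it is not stated in the labels if equally numbered fractions share an oocyte.

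Depth, as the sum of gene counts, was 11597144 and 9189672 for 10 cycles, 12349577 and 13806199 for 14 cycles, and 3017069 and 1706478 when whole oocytes had 18 cycles. The fractions gave 4024670 and 3598549 counts (1/2), 4027907 and 5049518 counts (1/4), and 11404262 and 1702062 counts (1/8). Levels are given as CPM, each count scaled by the total gene counts of its library. A gene with no count in a library may reach 3 counts at the upper limit, which is 0.217 CPM in the deepest library and 1.76 CPM in the shallowest. Of the 50 genes, between 41 and 47 had at least 5 counts in a library.

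The 2 whole oocytes at 18 cycles stood apart from the other whole oocytes. They had 1873 and 1158 gene counts per ERCC count, against 323 to 360 in the 4 whole oocytes at 10 and 14 cycles. All 15 oocyte markers on a fixed list had counts in at least 1 library, and 14 or 15 had at least 5 counts in each library. Gdf9 was the most abundant of them on average over the libraries. Padi6 was above Gdf9 in replicate 1 at 10 cycles, at 6870 against 5349 CPM, and in replicate 1 at 14 cycles. Ooep was above Gdf9 in replicate 1 of 1/2 and in replicate 2 of 1/8. The summed level of the oocyte markers was 33150 and 28790 CPM at 10 cycles, 32030 and 33270 CPM at 14 cycles and only 9112 and 7508 CPM at 18 cycles. The fractions 1/2, 1/4 and 1/8 had marker sums of 11000.0 and 10780.0, 16180 and 17720, and 25670 and 24420 CPM. All 15 granulosa cell markers had counts in at least 1 library as well, and summed to 31.6 to 244 CPM with no marker at 0 throughout. Only 2 to 13 of them had at least 5 counts in a library. Whole oocytes had granulosa sums of 244 and 87.9 CPM at 10 cycles, 116.8 and 189.5 CPM at 14 and 80.2 and 31.6 CPM at 18. Nr5a2 led on average, but Cyp11a1 led in replicate 1 at 10 cycles, at 66.6 against 46.2 CPM. Cyp19a1 led in both libraries from 1/8. The 8 blood markers summed to at most 6.73 CPM, with Cd3e and Hba-a1 at 0 in every library. Cd68 led the blood markers on average, but Lyz2 was above it in replicate 1 at 10 cycles and replicate 1 of the whole oocytes at 18 cycles. The part of these markers in the results on proteasome genes was not tested. Cycle number, oocyte, preparation and depth cannot be told apart in this design.

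Levels of different genes were compared as CPM per kilobase of annotated exons, averaged over the 12 libraries. Psma7, an alpha ring subunit, had the highest mean level at 369, with a range of 199 to 675 over the libraries. It was followed by Psmb2, a structural beta subunit, at 209, with a range of 108 to 304, and by the catalytic subunit Psmb6 at 191, with a range of 132 to 325. These 3 ranges overlapped, so the order of the leading genes was not fixed across libraries: Psma7 was highest in 8 libraries, Psmb2 in 3 and the chaperone Psmg4 in 1. The leader differed between groups and within some of them. Psmb2 was first in both libraries at 10 cycles and in replicate 2 at 14 cycles. Psma7 was first in replicate 1 at 14 cycles and in all libraries at 18 cycles but replicate 2 of the whole oocytes, where Psmg4 led. With the length of 1 transcript in place of all exons, an alternative chosen after seeing the data, Psma7 stayed first at 1240.1 and Psmb6 at 448 passed Psmb2 at 292. Among protein-coding genes with a count, the length-scaled level of Psma7 lay at percentile 99.6.

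By role, the median length-scaled level was 109.9 for the structural beta subunits, 79.4 for the alpha ring, 64.0 for the catalytic subunits, 51.8 for the ATPases, 48.8 for the core chaperones, 45.6 for the lid, 26.1 for the base chaperones, 22.6 for the other base subunits and 4.28 for the activators. Within every one of these roles the genes spread widely, and neighbouring roles overlapped. The induced and thymic beta subunits lay apart from the constitutive rings, with mean levels from 0.0698 to 0.724. At the lower end of the constitutive subunits stood Psma3 of the alpha ring at 8.16, Psmb3 of the beta ring at 6.67 and Psmd13 of the lid at 2.38, although an assembled particle holds each subunit in fixed number. Psma3 and Psmb3 each have 3 near-identical copies elsewhere in the genome, which cover 27.02% of the length of Psma3 and 80.7% of that of Psmb3, so some of their reads may have been left uncounted or, for Psma3, assigned to a copy. The copies of Psmb3 themselves had at most 1 count in a library, while for Psma3, with 40 to 498 counts, the copy Gm4742 had 3 to 55 and Gm13835 had 1 to 19.

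Inside the core particle, the distance between the highest and the lowest of the 14 constitutive subunits differed by library. On the length-scaled level the highest was 28.2 to 34.2 times the lowest in the 4 whole oocytes at 10 and 14 cycles, and 347 and 117 times at 18 cycles. Both libraries from 1/2 had a ratio of 125, those from 1/4 had 102 and 82.2, and those from 1/8 had 43.8 and 45.4. Replicate 1 of the whole oocytes at 18 cycles had the widest spread, its replicate 2 lay among the libraries from 1/2 and 1/4, and those from 1/8 came nearest to the libraries at 10 cycles. Psmb3 or Psma3, with their copies, was the lowest subunit in each of the 12 libraries, so the ratios carry that limit. In whole oocytes at 18 cycles the ratios also rest on only 7 and 10 counts of Psmb3, against 142 to 270 at 10 and 14 cycles. Of the 17 subunits of the regulatory particle, Psmd13 was the lowest in each library, with 0 counts in replicate 2 of the whole oocytes at 18 cycles.

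**Figure D1:**
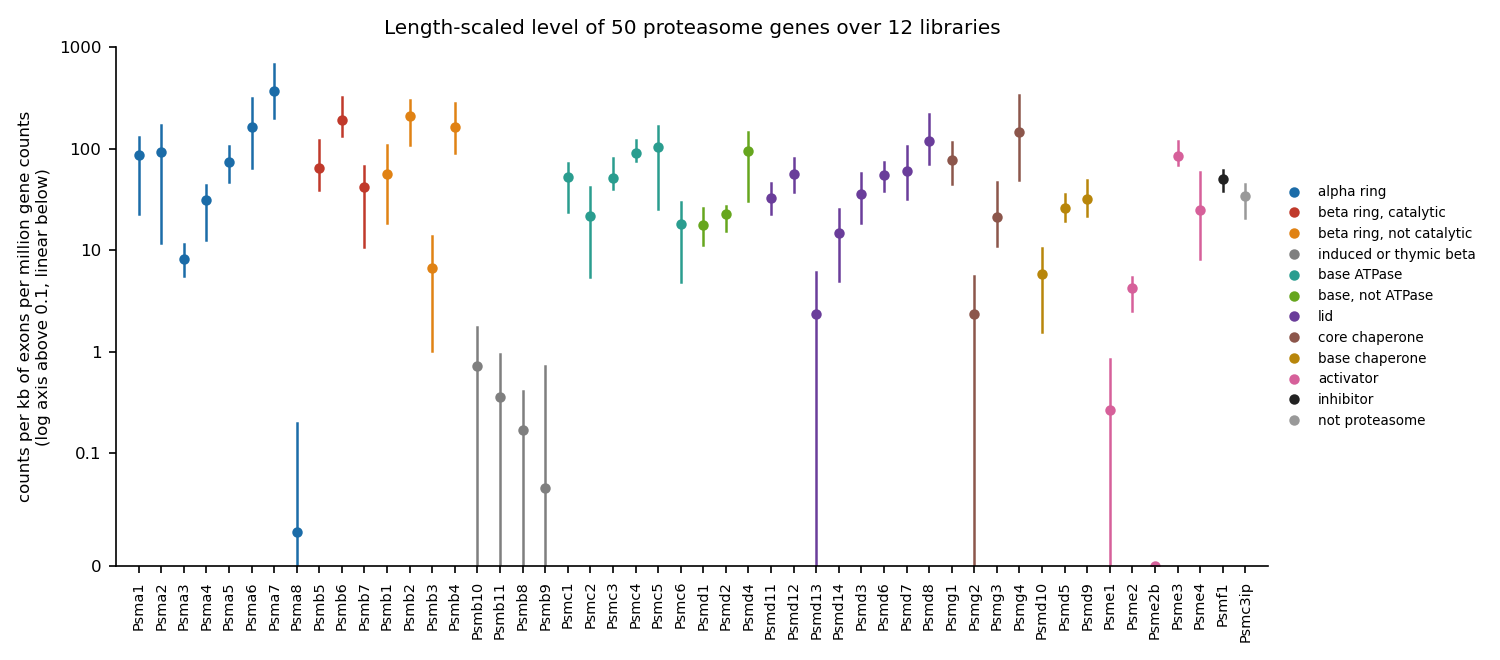
Length-scaled levels of the 50 genes by role, in CPM per kilobase of exons. Points are means over 12 libraries and lines run from the lowest to the highest library, so the spread of Psma7 from 199 to 675 can be set against the induced beta subunits near 0.

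Summed over the 50 genes, the level was 6758 and 7282 CPM at 10 cycles, 6860 and 7179 CPM at 14 cycles and 6974 and 6139 CPM in whole oocytes at 18 cycles. The fractions summed to 10158 and 7923 CPM (1/2), 6103 and 7389 CPM (1/4), and 8713 and 8952 CPM (1/8). The 3 whole-oocyte groups overlapped, while both libraries from 1/8 and both from 1/2 lay above all 6 whole oocytes. Without the 100 genes with the most counts, replicate 2 of 1/2 at 7831 CPM was below the 4 libraries at 10 and 14 cycles, at 8249.97 to 8797 CPM, and the whole oocytes at 18 cycles, at 7198 and 7627 CPM, no longer overlapped them. The mean was 7019.6 ± 370.5 CPM (SD, n = 2) at 10 cycles and 8832 ± 169 CPM (SD, n = 2) in 1/8. The Wilson interval at 95% for the shallowest library, 1/8 replicate 2, was 8812 to 9095 CPM, and such intervals cover counting error only, since amplified reads without molecular identifiers are not independent molecules. A sum over genes was given no test.

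Psma7 alone made up 9.05% and 8.83% of this sum at 10 cycles, 10.4% and 11.3% at 14 cycles, and 15.4% and 14.9% in whole oocytes at 18 cycles. The fractions 1/2, 1/4 and 1/8 had shares of 20.4% and 20.5%, 18.8% and 17.4%, and 14.7% and 16.0%. All 8 libraries at 18 cycles thus lay above the 4 at 10 and 14 cycles. The spread between libraries of a group also differed: over members with at least 50 counts in both, the median absolute log2 ratio of the 2 libraries was 0.16 at 10 cycles, 0.09 at 14 cycles, 0.37 in whole oocytes at 18 cycles, and 0.42, 0.31 and 0.25 in 1/2, 1/4 and 1/8.

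**Figure D2:**
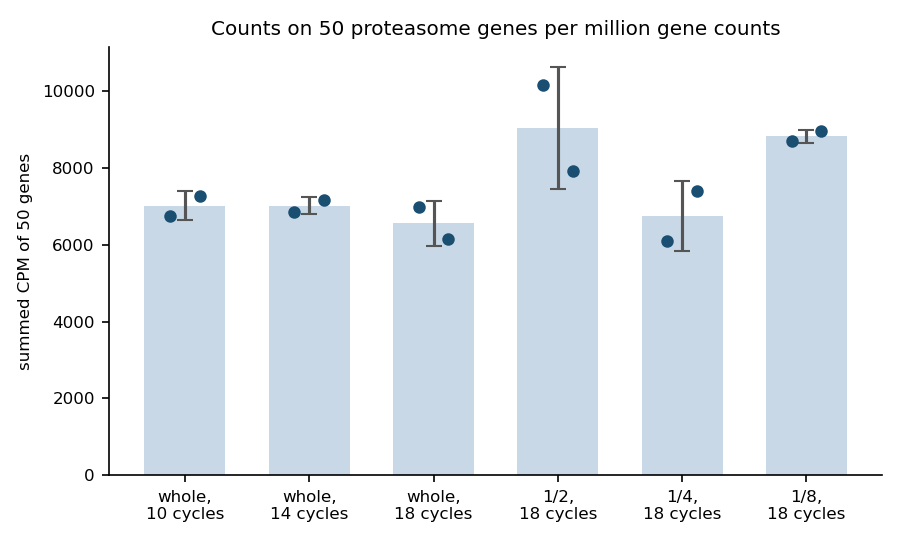
Summed CPM of the 50 proteasome genes in 6 groups, with points for the 2 libraries of each group, bars for their mean and error bars for the SD. The whole-oocyte groups overlap, and the means of 1/2 and 1/8 are above them at 9041 and 8832 CPM.

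Between 14 and 10 cycles the proteasome genes did not move past the threshold. Of the 47 members with enough counts for the test, 0 passed an adjusted p of 0.01 in edgeR's quasi-likelihood test and Benjamini-Hochberg adjustment, where 0% of the 17532 genes tested passed. At an unadjusted p under 0.05 there was 1 member, Psme4, among 513 genes. DESeq2 called 0 members (2 genes) at the adjusted threshold and 1 (381 genes) at the unadjusted one. The median log2 fold change of the members was 0.01, and that of all genes was 0.01. The 3 members not tested were Psma8, Psmb9 and Psme2b.

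At 18 cycles the picture was different, with genes of the same complex on both sides of the genes as a whole. Of 47 members tested in whole oocytes, 11 rose and 15 fell from 10 to 18 cycles, where 23.1% of all genes tested passed. Among genes with a mean of at least 50 normalized counts, a limit chosen after seeing the data, 26 of 42 members passed against 39.3% of all genes. The median log2 fold change of members was 0.04, against -0.29 for all genes tested, while among genes with a mean of at least 50 normalized counts the medians were 0.0487 and 0.025. Against 14 cycles, 9 members were higher and 15 lower at 18 cycles, where 23.2% of all genes and 39.2% of those with a mean of at least 50 normalized counts passed. Both comparisons share the 2 whole oocytes at 18 cycles, so they are given side by side and not as separate evidence.

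These directions are relative to the median of all genes, which depends on the scaling. With ERCC size factors the median of all genes at 18 against 10 cycles moved from -0.29 to 1.96, 28 of 47 members and 8348 of 17532 genes were higher and 0 lower, all 11 members called higher stayed higher, and 13 of the 15 called lower had a log2 fold change above 0, a change of sign that comes with the shift of all genes. Only Psma2 and Psmd13 stayed below 0, and none of the 15 passed the threshold in either direction. The ERCC counts behind that scaling were only 1611 and 1474 in the whole oocytes at 18 cycles. Leaving out either library at 10 cycles lowered the count of 26 members with median ratio size factors, and that of all genes with it. The lone library was there assumed to vary like the other groups. The median log2 fold change was -0.14 for members and -0.19 for all genes without replicate 1, and -0.10 and -0.25 without replicate 2. Whichever library was left out, 10 of the 26 passed, namely Psma2, Psmb4, Psmb7, Psmc2, Psmc5, Psmc6, Psmd7, Psmd8, Psme4 and Psmg4, and each of the other 16 lost its call without at least 1 library. For 18 against 14 cycles the count of 24 members, and that of all genes, also fell without either library at 14 cycles. The medians were -0.06 for members and -0.24 for all genes without replicate 1, and 0.15 and -0.22 without replicate 2.

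In the fractions, the members were compared with the whole oocytes at 18 cycles. With median ratio size factors 2 of 45 members tested, Psma1 and Psmb1, were higher in 1/2, where 0.122% of all 14788 genes tested and 0.218% of those with a mean of at least 50 normalized counts passed. Each of these 2 calls was lost without at least 1 library, and the count of all genes changed as well. In 1/4, edgeR called 0 members, where 0.46% of all genes and 0.806% of those with a mean of at least 50 normalized counts passed, with 17 members (and 2331 genes) at an unadjusted p under 0.05 and 3 members (239 genes) called by DESeq2. In 1/8, 14 members were higher and 4 lower, where 15.7% of all genes and 26.2% of those with a mean of at least 50 normalized counts passed, and the median log2 fold change was 0.27 for members and 0.03 for all genes, or 0.26 and -0.12 with a mean of at least 50 normalized counts. The count of 18 in 1/8, and that of all genes, fell with any 1 library left out. The median log2 fold change was 0.54 for members and 0.14 for all genes without replicate 1 of the whole oocytes. Without replicate 2 of 1/8 it was 0.33 and 0. Psma1, Psma2, Psmb1, Psmb7, Psmc2, Psmc5 and Psmg4 were called whichever library was left out.

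On the scale of the spike-in RNA, with ERCC size factors, 0 members were higher in any fraction, and 20 of 45 were lower in 1/2, 39 in 1/4 and 42 in 1/8, where 52%, 69.7% and 87.5% of all genes passed. With a mean of at least 50 normalized counts, 48.7% of members and 76.2% of all genes passed in 1/2. The same limit gave 39 of 39 members and 8856 of 9217 genes in 1/4, and 39 of 39 and 9213 of 9217 in 1/8. The median log2 fold change of members was -1.58, -2.67 and -4.66 in 1/2, 1/4 and 1/8, and that of all genes was -2, -2.69 and -4.92. All 45 members tested in 1/8 were below 0 with ERCC size factors, with the shift of all genes, so a rise there with median ratio size factors is relative to other genes. These values rest on the 2 whole oocytes at 18 cycles, which stood apart. With all 6 whole oocytes as the reference the medians of all genes were -1.15, -1.90 and -3.94. There 0, 0 and 21 of 47 members were lower, beside 0, 0 and 8512 of 18041 genes. The count of 20 in 1/2, and that of all genes, fell without replicate 1 of the whole oocytes or replicate 2 of 1/2. The medians were then -0.81 for members and -1.39 for all genes, and -1.24 and -1.84, in that order.

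Other references were used for 1/8 in a fit of all 12 libraries, so reference and fit changed together and cannot be told apart. Against whole oocytes at 10 cycles, edgeR called 0 of 47 members and 0% of all 18041 genes tested, with 11 members (and 2278 genes) at an unadjusted p under 0.05 and 1 member (40 genes) called by DESeq2. With all 6 whole oocytes as the reference 0 of 47 members and 0 of 18041 genes were called in 1/8. The median log2 fold change was 0.26 for members and -0.16 for all genes. The comparison of 1/8 with 1/2 uses no whole-oocyte library, but all fractions came from lysates of the same 2 oocytes. In it 2 members were higher in 1/8 (Psma2 and Psmc2) and 2 lower (Psmg3 and Psmg4), where 5.94% of all genes and 10.5% of those with a mean of at least 50 normalized counts passed. Each of these calls was lost without at least 1 library, and the count of all genes also fell whichever library was left out. The p-values measure only the spread between these samples.

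**Figure D3:**
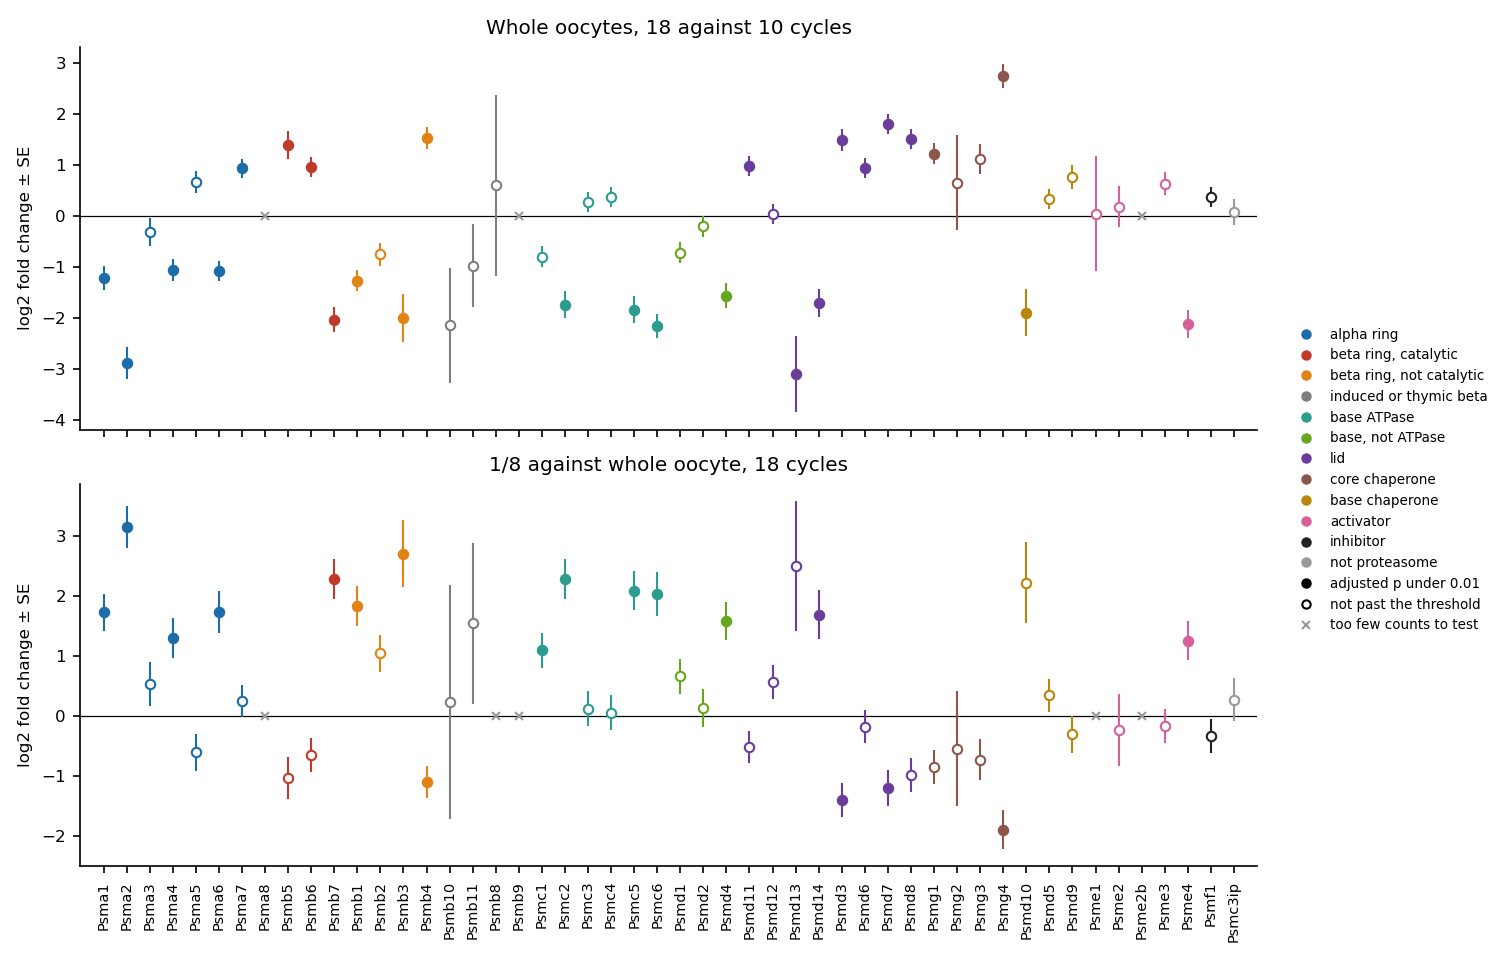
Log2 fold changes with SE of the members by role, for whole oocytes at 18 against 10 cycles and for 1/8 against whole oocytes at 18 cycles, both with median ratio size factors. Filled points pass an adjusted p of 0.01, and ERCC size factors move the median of all genes from -0.29 to 1.96 in the upper and from 0.03 to -4.92 in the lower panel, so that 13 of the 15 falls above and all 14 rises below change sign with that shift.

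In the alpha ring, whose subunits form the gate of the barrel, 4 of 7 tested genes fell and 1 rose from 10 to 18 cycles, with a median log2 fold change of -1.06, where 39.3% of all genes with a mean of at least 50 normalized counts passed with a median of 0.025. Psma2 had 489 and 588 CPM in the whole oocytes at 10 cycles, 504 and 498 CPM at 14 cycles and 43.4 and 77.9 CPM at 18 cycles. In the fractions it had 199.8 and 168 CPM in 1/2, 121 and 202 CPM in 1/4 and 609.7 and 623 CPM in 1/8 of an oocyte. The whole oocytes at 18 cycles were the lowest libraries, with no overlap with any other group, and those from 1/8 were the highest. Its log2 fold change was -2.89 (SE 0.31, adjusted p = 1.25e-04) at 18 against 10 cycles and 3.14 (SE 0.35, adjusted p = 6.99e-06) in 1/8 against whole oocytes by edgeR's quasi-likelihood test and Benjamini-Hochberg adjustment. With ERCC size factors these were -0.78 and -1.71. Among the 26 members called at 18 against 10 cycles, only Psmd13 had a larger fitted fall than Psma2. That of Psmd13 rests on 4 and 0 counts in the whole oocytes at 18 cycles, so the order of the 2 is uncertain.

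Psma7, which can be exchanged in the ring for the testis subunit Psma8, moved the other way. It had 611 and 643 CPM in the whole oocytes at 10 cycles, 711 and 813 CPM at 14 cycles and 1075 and 914 CPM at 18 cycles. The fractions held 2073 and 1622 CPM in 1/2, 1146 and 1282 CPM in 1/4 and 1279.8 and 1432 CPM in 1/8 of an oocyte. Every library at 18 cycles, whole or fraction, lay above the 4 libraries at 10 and 14 cycles. The log2 fold change of Psma7 was 0.93 (SE 0.19, adjusted p = 0.00362) at 18 against 10 cycles by edgeR's quasi-likelihood test and Benjamini-Hochberg adjustment, and 3.17 with ERCC size factors. The call was lost without either library at 10 cycles, where the value was 0.85 without replicate 1 and 1.00 without replicate 2, and against 14 cycles Psma7 was not called, at 0.68. Psma8 itself had 1 and 3 counts at 10 cycles, 2 counts in replicate 1 of 1/2 and 0 in the other libraries, which is at or under the upper limit of a count of 0, so no fold was computed.

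The other alpha subunits were Psma1, Psma4 and Psma6, which were lower at 18 than at 10 cycles, and Psma3 and Psma5, which did not pass there. Psma1 had 257 and 257 CPM in the whole oocytes at 10 cycles, 306 and 287 CPM at 14 cycles and 117 and 66.8 CPM at 18 cycles. Its fractions held 381 and 266 CPM in 1/2, 171 and 233 CPM in 1/4 and 343 and 349.6 CPM in 1/8 of an oocyte. Both whole oocytes at 18 cycles were below every other library, and replicate 1 of 1/2 was the highest. Psma1 was 1 of the 2 members called in 1/2, with a log2 fold change of 1.79 (SE 0.31, adjusted p = 0.00863) by edgeR's quasi-likelihood test and Benjamini-Hochberg adjustment, and -0.23 with ERCC size factors. At 18 against 10 cycles the values of Psma1, Psma4 and Psma6 were -1.23, -1.06 and -1.08, and in 1/8 against whole oocytes they were 1.72, 1.30 and 1.72. All 3 changed sign with ERCC size factors, to 1.09, 1.202 and 1.18 at 18 against 10 cycles. Without replicate 2 at 10 cycles these 3 calls were lost, at -1.19, -0.97 and -0.99. Those of Psma1 and Psma4 were also lost without replicate 1, at -1.27 and -1.15, and that of Psma4 without replicate 2 at 18 cycles, at -0.91. The call of Psma1 in 1/2 was lost without replicate 1 of 1/2 at 1.47 or without replicate 2 of the whole oocytes at 1.504. In 1/8 the call of Psma4 was lost whichever of the 4 libraries was left out, with values from 1.15 to 1.45, and that of Psma6 was lost without replicate 2 of 1/8 at 1.55 or without either whole oocyte, at 1.85 and 1.58. Psma3 at -0.32 and Psma5 at 0.66 were not called against 10 cycles, though Psma5 was called higher at 18 against 14 cycles at 1.02. Psma4 and Psma5 each have pseudogene copies that can share their reads.

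Of the 3 catalytic beta subunits, which cut after different residues, Psmb5 and Psmb6 were higher at 18 than at 10 cycles and Psmb7 was lower, while against 14 cycles Psmb5 was not called, at 1.10. Psmb5, the chymotrypsin-like subunit, had 39.9 and 35.1 CPM in the whole oocytes at 10 cycles, 51.5 and 42.4 CPM at 14 cycles and 109 and 55.1 CPM at 18 cycles. Its fractions held 70.1 and 52.2 CPM in 1/2, 59.6 and 85.4 CPM in 1/4 and 54.8 and 35.3 CPM in 1/8 of an oocyte. The whole oocytes at 18 cycles were above all 4 others, but their 2 libraries differed by 1.99 times, the largest difference in that group among members with at least 50 counts in both libraries. The log2 fold change of Psmb5 was 1.39 (SE 0.28, adjusted p = 0.00304) by edgeR's quasi-likelihood test and Benjamini-Hochberg adjustment and 3.74 with ERCC size factors. The call was lost without either library at 10 cycles and without replicate 1 at 18 cycles, where the value was 0.92. Its exons overlap a microRNA gene on the same strand over 12.1% of their length, and the pseudogene copy Gm3375 had 0 counts in all 12 libraries.

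Psmb6, the caspase-like subunit, had 258 and 309 CPM in the whole oocytes at 10 cycles, 247 and 257 CPM at 14 cycles and 487 and 435 CPM at 18 cycles. It had 608 and 376 CPM in 1/2, 324 and 309 CPM in 1/4 and 359 and 316 CPM in 1/8 of an oocyte. The whole oocytes at 18 cycles lay above those at 10 and 14 cycles with no overlap, and 1/4 and 1/8 came nearest to the latter. Psmb6 had a log2 fold change of 0.96 (SE 0.20, adjusted p = 0.0037) by edgeR's quasi-likelihood test and Benjamini-Hochberg adjustment at 18 against 10 cycles and 3.19 with ERCC size factors. That call was also lost without either library at 10 cycles, with 0.80 without replicate 1.

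Psmb7, the trypsin-like subunit, had 179.6 and 219.6 CPM in the whole oocytes at 10 cycles, 157 and 183 CPM at 14 cycles and 37.1 and 44.5 CPM at 18 cycles. In the fractions there were 135 and 85.3 CPM in 1/2, 81.4 and 134 CPM in 1/4 and 222 and 231 CPM in 1/8 of an oocyte. The 2 whole oocytes at 18 cycles were the lowest libraries, and 1/8 the highest. Its log2 fold change was -2.04 (SE 0.24, adjusted p = 1.80e-04) at 18 against 10 cycles and 2.28 (SE 0.34, adjusted p = 6.76e-05) in 1/8 against whole oocytes by edgeR's quasi-likelihood test and Benjamini-Hochberg adjustment. With ERCC size factors the first value became 0.15 and the second -2.65. An exon overlap of 11.8% with Nek6 on the opposite strand means that some of these reads could belong to Nek6.

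Of the 4 structural beta subunits, 1 rose, 2 fell and 1 was not called at 18 against 10 cycles, where 39.3% of all genes with a mean of at least 50 normalized counts passed. Psmb4 had 181 and 235 CPM in the whole oocytes at 10 cycles, 178 and 189 CPM at 14 cycles and 553 and 445 CPM at 18 cycles. Fractions of an oocyte held 479.5 and 429 CPM in 1/2, 283 and 332 CPM in 1/4 and 254 and 280.2 CPM in 1/8 of an oocyte. Every library at 18 cycles was above those at 10 and 14 cycles, and among them the libraries from 1/8 were the lowest. Psmb4 had log2 fold changes of 1.52 (SE 0.21, adjusted p = 4.64e-04) at 18 against 10 cycles and -1.10 (SE 0.27, adjusted p = 0.00397) in 1/8 against whole oocytes by edgeR's quasi-likelihood test and Benjamini-Hochberg adjustment. With ERCC size factors the first was 3.76, and the second lost its call without replicate 1 of the whole oocytes or without either library of 1/8, with values from -1.16 to -1.01.

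Psmb1 had 235 and 288 CPM in the whole oocytes at 10 cycles, 221 and 230.4 CPM at 14 cycles and 95.5 and 84.97 CPM at 18 cycles. In fractions it had 504 and 277 CPM in 1/2, 148 and 262 CPM in 1/4 and 330.1 and 405 CPM in 1/8 of an oocyte. Its 2 whole oocytes at 18 cycles were the lowest of the 12 libraries and replicate 1 of 1/2 the highest. It was called in 1/2 at 2.09 (SE 0.33, adjusted p = 0.00863) by edgeR's quasi-likelihood test and Benjamini-Hochberg adjustment, and had 0.16 with ERCC size factors. At 18 against 10 cycles its log2 fold change was -1.28, or 0.95 with ERCC size factors, and in 1/8 it was 1.82. Its call in 1/2 was lost without either whole oocyte or replicate 1 of 1/2, with 1.55 in the last case, and its fall was not called without replicate 2 at 10 cycles, at -1.08.

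Psmb3, a low gene at 21.04 and 15.5 CPM at 10 cycles and 2.32 and 5.86 CPM in whole oocytes at 18 cycles, had -2.003, or 0.21 with ERCC size factors. That call was lost without either library at 10 cycles or without replicate 1 at 18 cycles, where it was -1.27. Psmb2 had 304 and 274 CPM in the whole oocytes at 10 cycles, 227 and 344 CPM at 14 cycles and 154 and 129.5 CPM at 18 cycles. With 289 and 169 CPM in 1/2, 181 and 273 CPM in 1/4 and 366 and 304 CPM in 1/8 of an oocyte, its fractions overlapped the libraries at 14 cycles. The whole oocytes at 18 cycles were the lowest libraries of Psmb2, yet it was not called at 18 against 10 cycles, at -0.76.

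The induced beta subunits Psmb8, Psmb9 and Psmb10 replace the catalytic subunits in the immunoproteasome, and Psmb11 does so in the thymus. Psmb8 had 9 and 1 counts at 10 cycles, 7 and 0 at 14, 3 and 0 at 18, 1 and 3 in 1/2, 2 and 7 in 1/4 and 4 and 2 in 1/8. Psmb9 had 3 and 0 counts at 10 cycles, 1 and 1 at 14, 8 and 0 in whole oocytes at 18 cycles and 0 in the 6 fractions. Neither gene rose above single-digit counts in any library, and Psmb8 also shares 14.7% of its exon length with a gene on the opposite strand.

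Psmb10 had 34 and 13 counts at 10 cycles, 10 and 14 at 14, 2 and 0 at 18, 8 and 3 in 1/2, 3 and 15 in 1/4 and 3 and 2 in 1/8. Psmb11 had 24 and 17 counts at 10 cycles, 33 and 63 at 14, 3 and 1 at 18, 0 and 1 in 1/2, 2 and 8 in 1/4 and 35 and 4 in 1/8. Replicate 1 at 10 cycles had the highest count of Psmb10 and replicate 2 at 14 cycles that of Psmb11. Whole oocytes at 18 against 10 cycles gave 0 calls among the 3 tested genes of this role by edgeR's quasi-likelihood test, with 0 at an unadjusted p under 0.05. Against 14 cycles 0 were called and 1, Psmb11 at -1.83, had an unadjusted p under 0.05. On the length-scaled level the most abundant of them, Psmb10, was at 0.724, against 41.7 for Psmb7, the least abundant constitutive catalytic subunit.

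The 6 ATPases of the base form the ring that unfolds the substrate, and 3 of them fell and 0 rose from 10 to 18 cycles, where 39.3% of all genes with a mean of at least 50 normalized counts passed in either direction. Psmc6 had 101 and 97.1 CPM in the whole oocytes at 10 cycles, 93.7 and 105 CPM at 14 cycles and 16.9 and 20.5 CPM at 18 cycles. It was at 29.3 and 31.7 CPM in 1/2, 44.9 and 36.6 CPM in 1/4 and 74.4 and 102 CPM in 1/8 of an oocyte. The whole oocytes at 18 cycles were lowest, 1/2 and 1/4 lay between, and 1/8 overlapped the whole oocytes at 10 cycles. Psmc6 had a log2 fold change of -2.16 (SE 0.24, adjusted p = 1.38e-04) by edgeR's quasi-likelihood test and Benjamini-Hochberg adjustment at 18 against 10 cycles, but 0.06 with ERCC size factors. Its value in 1/8 was 2.03 against whole oocytes, a call that was lost without replicate 1 of the whole oocytes at 1.80.

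Psmc5 had 186 and 201 CPM in the whole oocytes at 10 cycles, 199.9 and 200.5 CPM at 14 cycles and 35.5 and 55.1 CPM at 18 cycles. The values were 107 and 110.0 CPM in 1/2, 87.6 and 118 CPM in 1/4 and 234 and 206 CPM in 1/8 of an oocyte. Whole oocytes at 18 cycles again held the lowest values, and both 1/8 libraries were above those at 10 cycles. The log2 fold change of Psmc5 was -1.84 at 18 against 10 cycles, or 0.31 with ERCC size factors, and 2.08 (SE 0.32, adjusted p = 8.89e-05) in 1/8 against whole oocytes by edgeR's quasi-likelihood test and Benjamini-Hochberg adjustment. With ERCC size factors the value in 1/8 was -2.79.

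Psmc2 had 142 and 129 CPM in the whole oocytes at 10 cycles, 164 and 151 CPM at 14 cycles and 27.2 and 41.02 CPM at 18 cycles. It had 66.8 and 69.5 CPM in 1/2, 68.03 and 72.9 CPM in 1/4 and 170.3 and 209 CPM in 1/8 of an oocyte in turn. The order of the groups was that of Psmc5, with 1/2 and 1/4 overlapping each other between the whole oocytes at 18 cycles and the rest. Psmc2 had -1.74 on the log2 scale at 18 against 10 cycles, or 0.44 with ERCC size factors, and 2.28 (SE 0.33, adjusted p = 4.77e-05) in 1/8 against whole oocytes by edgeR's quasi-likelihood test and Benjamini-Hochberg adjustment. Its value in 1/8 against 1/2 was 1.31, a call lost whichever library was left out, with 1.17 without replicate 2 of 1/8. The remaining ATPases, Psmc1, Psmc3 and Psmc4, were not called at 18 against 10 cycles, at -0.80, 0.26 and 0.37, but against 14 cycles Psmc1 was called lower at -0.96. Summed over the 6 ATPases, the level was 815 and 829.8 CPM at 10 cycles, 880.3 and 891 CPM at 14 cycles, 429.6 and 462 CPM at 18 cycles and 1033 and 936 CPM in 1/8.

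Of the other base subunits, the ubiquitin receptor Psmd4 was lower at 18 than at 10 cycles at -1.57, or 0.58 with ERCC size factors, while the scaffold subunits Psmd1 and Psmd2 were not called. Psmd4 had 343 and 383 CPM in the whole oocytes at 10 cycles, 338 and 319.8 CPM at 14 cycles and 85.2 and 118 CPM at 18 cycles. In 1/8 it had 405 and 295 CPM. Its whole oocytes at 18 cycles lay below all of these libraries. The fall was not called without replicate 2 at 10 cycles, at -1.45. The value of Psmd4 in 1/8 against whole oocytes was 1.58, a call lost without replicate 1 of the whole oocytes at 1.28 and without replicate 1 of 1/8 at 1.35.

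The lid carries the deubiquitinase, and 5 of its 8 subunits rose and 2 fell from 10 to 18 cycles, beside 23.1% of all genes tested and 39.3% of those with a mean of at least 50 normalized counts. Psmd7, the partner of the deubiquitinase Psmd14, had 78.04 and 72.8 CPM in the whole oocytes at 10 cycles, 106 and 89.1 CPM at 14 cycles and 238 and 199 CPM at 18 cycles. It had 204 and 178 CPM in 1/2, 143 and 109 CPM in 1/4 and 86.6 and 133 CPM in 1/8 of an oocyte among the fractions. Whole oocytes at 18 cycles and 1/2 were highest, and 1/8 overlapped the libraries at 14 cycles. Psmd7 had 1.80 (SE 0.20, adjusted p = 1.31e-04) as log2 fold change at 18 against 10 cycles by edgeR's quasi-likelihood test and Benjamini-Hochberg adjustment, and 4.06 with ERCC size factors. The 1/8 libraries gave -1.21 against whole oocytes, a call lost without either whole oocyte or without replicate 1 of 1/8, with values from -1.28 to -0.90.

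Psmd8 had 229 and 215 CPM in the whole oocytes at 10 cycles, 217 and 259.8 CPM at 14 cycles and 545 and 506 CPM at 18 cycles. Here the fractions held 677 and 444 CPM in 1/2, 287 and 372 CPM in 1/4 and 279.7 and 332 CPM in 1/8 of an oocyte. All libraries at 18 cycles were above those at 10 and 14 cycles, with 1/8 and 1/4 nearest to them. Psmd8 had a log2 fold change of 1.51 (SE 0.19, adjusted p = 2.79e-04) by edgeR's quasi-likelihood test and Benjamini-Hochberg adjustment at 18 against 10 cycles, and 3.75 with ERCC size factors. Psmd3 had 132 and 98.2 CPM in the whole oocytes at 10 cycles, 119 and 117 CPM at 14 cycles and 249 and 286 CPM at 18 cycles. Its fractions had 217 and 211 CPM in 1/2, 215 and 241 CPM in 1/4 and 139 and 92.8 CPM in 1/8 of an oocyte. In Psmd3 the libraries from 1/8 overlapped those at 10 and 14 cycles and lay below 1/2 and 1/4. Its log2 fold change in 1/8 against whole oocytes was -1.40 (SE 0.29, adjusted p = 0.00108) by edgeR's quasi-likelihood test and Benjamini-Hochberg adjustment, and without replicate 2 of 1/8 it was -1.13 and no longer called. At 18 against 10 cycles it was 1.49, and 1.32 and not called without replicate 2 at 10 cycles. Psmd6 and Psmd11 were higher at 18 cycles, at 0.94 and 0.97, but neither was called without replicate 1 at 10 cycles, at 0.82 and 0.96, or without replicate 2, at 1.07 and 0.97. Psmd6 was also lost without replicate 1 at 18 cycles, at 0.83. Psmd11 was not called against 14 cycles, at 0.76, and Psmd12 was not called in either comparison.

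The falls in the lid were those of Psmd13 and Psmd14. Psmd13 had 11.3 and 5.66 CPM in the whole oocytes at 10 cycles, 15.5 and 15.1 CPM at 14 cycles and 1.33 and 0 CPM at 18 cycles. It had 6.21 and 0.556 CPM in 1/2, 8.69 and 20.8 CPM in 1/4 and 4.03 and 7.05 CPM in 1/8 of an oocyte. In whole oocytes at 18 cycles these values rest on 4 and 0 counts, and the 3-count limit of the library at 0 is 1.76 CPM. The fitted log2 fold change of Psmd13 at 18 against 10 cycles was -3.11 (SE 0.75, adjusted p = 0.00826) by edgeR's quasi-likelihood test and Benjamini-Hochberg adjustment, or -0.77 with ERCC size factors. It was the largest fall among the members, but the call was lost whichever of the 4 libraries was left out. Against 14 cycles it was -3.93 (SE 0.72, adjusted p = 0.00192) by edgeR's quasi-likelihood test and Benjamini-Hochberg adjustment, and called whichever library was left out. A Sirt3 exon on the opposite strand covers 10.1% of its exon length. Psmd14, the deubiquitinase, had 50.96 and 71.1 CPM in the whole oocytes at 10 cycles, 52.4 and 59.7 CPM at 14 cycles and 16.9 and 14.1 CPM at 18 cycles. Its libraries at 18 cycles were below those at 10 and 14 cycles, with a log2 fold change of -1.71, or 0.51 with ERCC size factors. Without replicate 2 at 10 cycles it was -1.41 and not called.

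The chaperones Psmg1 to Psmg4 assemble the core particle, and 2 of the 4 rose and 0 fell from 10 to 18 cycles, when 39.3% of all genes with a mean of at least 50 normalized counts passed. Psmg4 had 29.1 and 32.5 CPM in the whole oocytes at 10 cycles, 27.4 and 27.5 CPM at 14 cycles and 153 and 187 CPM at 18 cycles. For the fractions the values were 166 and 102 CPM in 1/2, 73.2 and 68.3 CPM in 1/4 and 49.5 and 56.99 CPM in 1/8 of an oocyte. Whole oocytes at 18 cycles and 1/2 overlapped at the top, 1/4 came next, and 1/8 lay below 1/4 but above all libraries at 10 and 14 cycles. This was the largest rise of any member, a log2 fold change of 2.74 (SE 0.23, adjusted p = 6.18e-05) at 18 against 10 cycles by edgeR's quasi-likelihood test and Benjamini-Hochberg adjustment, and 4.91 with ERCC size factors. In 1/8 against whole oocytes it was -1.89 (SE 0.32, adjusted p = 2.34e-04) by edgeR's quasi-likelihood test and Benjamini-Hochberg adjustment, the largest fall of the members called there.

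Psmg1 had 60.6 and 68.6 CPM in the whole oocytes at 10 cycles, 89.5 and 79.1 CPM at 14 cycles and 133 and 117 CPM at 18 cycles. Its levels in whole oocytes at 18 cycles were above those of the other whole oocytes, with a log2 fold change of 1.22, and the call was lost without replicate 1 at 10 cycles at 1.09. Psmg3 had 31.99 and 44.1 CPM in the whole oocytes at 10 cycles, 45.5 and 34.8 CPM at 14 cycles and 87.8 and 49.2 CPM at 18 cycles. Both libraries at 18 cycles were above the other whole oocytes, but the log2 fold change of 1.11 was not called. In 1/8 against 1/2 it was -1.44, a call lost without either library of 1/8 or replicate 1 of 1/2, where it was -1.08. Psmg2, the partner of Psmg1, was the least abundant of the 4 on the length-scaled level at 2.35 and was not called. The summed level of the 4 chaperones was 125 and 147 CPM at 10 cycles, 382 and 353 CPM in whole oocytes at 18 cycles and 175 and 191 CPM in 1/8.

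The base is assembled with Psmd5, Psmd9 and Psmd10, and of these only Psmd10 was called at 18 against 10 cycles, at -1.91, or 0.30 with ERCC size factors. Psmd10, also known as gankyrin, had 11.9 and 13.3 CPM in the whole oocytes at 10 cycles, 12.9 and 10.9 CPM at 14 cycles and 2.32 and 3.52 CPM at 18 cycles. The 2 whole oocytes at 18 cycles were below the other 4, and the call was lost without replicate 1 at 18 cycles, at -1.48, or without either library at 10 cycles. It was not called against 14 cycles, at -1.79. Psmd5 and Psmd9 were at 0.33 and 0.77, and 25.5% of the exon length of Psmd9 overlaps a gene on the opposite strand.

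Among the activators, which cap the core in place of the regulatory particle, Psme3 and Psme4 were the genes with high counts. Psme4, which encodes the nuclear activator PA200, had 358 and 497 CPM in the whole oocytes at 10 cycles, 279 and 278 CPM at 14 cycles and 68.6 and 96.1 CPM at 18 cycles. The fractions gave 85.97 and 121 CPM in 1/2, 127 and 114 CPM in 1/4 and 168 and 287 CPM in 1/8 of an oocyte. Whole oocytes at 18 cycles and 1/2 overlapped at the lower end, and each library of a fraction was below replicate 1 at 10 cycles. Psme4 had a log2 fold change of -2.12 (SE 0.27, adjusted p = 2.96e-04) at 18 against 10 cycles by edgeR's quasi-likelihood test and Benjamini-Hochberg adjustment, but 0.02 with ERCC size factors. It was also the member with an unadjusted p under 0.05 at 14 against 10 cycles, at -0.66. Its value in 1/8 against whole oocytes was 1.25, and the call was lost without replicate 1 of the whole oocytes at 0.94 and without replicate 2 of 1/8 at 0.84.

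Psme3, the nuclear activator REG gamma, had 202 and 252 CPM in the whole oocytes at 10 cycles, 205 and 209.7 CPM at 14 cycles and 261 and 320.0 CPM at 18 cycles. It was at 257 and 257 CPM in 1/2, 225 and 219 CPM in 1/4 and 244 and 354 CPM in 1/8 of an oocyte over the fractions. Whole oocytes at 18 cycles and both libraries from 1/2 lay above those at 10 and 14 cycles, 1/4 was within the range at 10 cycles and below 1/2 and 1/8, and the log2 fold change of 0.63 (SE 0.23, adjusted p = 0.0526) did not pass in edgeR's quasi-likelihood test and Benjamini-Hochberg adjustment. Psme2, a subunit of the interferon-induced activator, had 9.66 and 7.07 CPM in the whole oocytes at 10 cycles, 8.66 and 8.55 CPM at 14 cycles and 7.62 and 8.20 CPM at 18 cycles. Its fractions were at 8.45 and 6.39 CPM in 1/2, 4.47 and 5.94 CPM in 1/4 and 7.37 and 8.23 CPM in 1/8 of an oocyte. For Psme2 the libraries from 1/4 were the lowest, those at 14 cycles lay above all at 18 cycles, and those at 10 cycles lay on either side of those at 14, at 0.18 on the log2 scale at 18 against 10 cycles.

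The other subunit of that activator, Psme1, had 22 and 4 counts at 10 cycles, 5 and 17 at 14, 4 and 1 in whole oocytes at 18 cycles and 4 and 1 in 1/2, with 0 in 1/4 and 1/8. Psme2b had 0 counts in all 12 libraries. It is a near-identical copy of Psme2, so reads that fit both genes could have been left out of the counts, and its level is uncertain. The inhibitor Psmf1 had 341 and 272 CPM in the whole oocytes at 10 cycles, 317 and 346 CPM at 14 cycles and 348 and 308 CPM at 18 cycles. Its groups overlapped, at 0.37 at 18 against 10 cycles, which was not called. Psmc3ip had 49.5 and 71.4 CPM in the whole oocytes at 10 cycles, 63.6 and 63.4 CPM at 14 cycles and 51.04 and 55.1 CPM at 18 cycles. It had 81.99 and 47.8 CPM in 1/2, 37.7 and 72.3 CPM in 1/4 and 74.2 and 72.9 CPM in 1/8 of an oocyte, so that both libraries from 1/8 lay just above all 6 whole oocytes. The 2 libraries at 10 cycles spanned those at 14 and at 18 cycles, and its log2 fold change of 0.07 was not called. An overlap of 21.2% of its exon length with Mlx on the opposite strand makes its level uncertain.

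Of the 34 other genes of the pathway, 10 rose and 4 fell from 10 to 18 cycles, 10 rose and 3 fell from 14 to 18 cycles, and in 1/8 against whole oocytes 2 were higher and 5 lower. The shares called, 41.2%, 38.2% and 20.6%, stand beside 39.3%, 39.2% and 26.2% of all genes with a mean of at least 50 normalized counts and 23.1%, 23.2% and 15.7% of all genes tested. Between 1/8 and 1/2 there were 0 higher and 5 lower in 1/8, or 14.7%, beside 5.94% of all genes tested and 10.5% of those with a mean of at least 50 normalized counts. At 14 against 10 cycles, in 1/2, in 1/4 and in 1/8 against whole oocytes at 10 cycles edgeR called 0 of them, with 1, 8, 9 and 6 at an unadjusted p under 0.05. In the same order, 0, 18, 68 and 0 of all genes tested were called. An unadjusted p under 0.05 was found for 513 of 17532, 1943 of 14788, 2331 of 14788 and 2278 of 18041 genes. With ERCC size factors the 10 called higher at 18 against 10 cycles stayed higher and the 4 called lower were above 0.

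Zfand5, which binds the proteasome and increases its activity, had 182 and 192 CPM in the whole oocytes at 10 cycles, 187 and 147 CPM at 14 cycles and 1271 and 2101 CPM at 18 cycles. Its fractions contained 748 and 963 CPM in 1/2, 924 and 649.8 CPM in 1/4 and 224 and 457 CPM in 1/8 of an oocyte. Libraries at 18 cycles were all above those at 10 and 14 cycles, the whole oocytes most of all. Its log2 fold change was 3.46 (SE 0.31, adjusted p = 7.20e-05) at 18 against 10 cycles by edgeR's quasi-likelihood test and Benjamini-Hochberg adjustment.

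Nfe2l2, a transcription factor of the stress response that can raise proteasome genes, had 18.2 and 23.7 CPM in the whole oocytes at 10 cycles, 22.9 and 28.97 CPM at 14 cycles and 4.64 and 2.93 CPM at 18 cycles. The 2 libraries at 18 cycles were below the other whole oocytes. At 18 against 10 cycles it was -2.17 (SE 0.40, adjusted p = 0.00185) by edgeR's quasi-likelihood test and Benjamini-Hochberg adjustment, or 0.08 with ERCC size factors. Nfe2l1, the factor that raises proteasome genes when the protease is impaired, was not called at 0.13, and Pomp, the maturation factor of the core, was not called at -0.19. The remaining subunits Sem1 and Adrm1, which lack the shared symbol, were both higher, at 1.499 and 1.54.

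Base composition moved with these differences. The members had a GC content between 37.0% and 58.3%, with a median of 49.8%, close to 50.1% for all protein-coding genes with a count. From 10 to 18 cycles, the 10 tested members with at most 45% GC were 0 times higher and 8 times lower on that scale, whereas the 8 members above 55% GC were higher 4 times and lower 0 times. All protein-coding genes leaned the same way: with a mean of at least 50 normalized counts, 7.64% were higher and 32.2% lower at up to 45% GC, and 42.6% were higher and 3.74% lower above 55%. Between 45% and 50% GC, 3 of 14 members were higher and 3 lower, and between 50% and 55% it was 4 and 4 of 15, beside 13% higher and 20.1% lower, and 22.8% higher and 12.7% lower, of those protein-coding genes. Among all protein-coding genes tested, with no limit on the mean, 5.15% were higher and 22.4% lower at up to 45% GC. There 8.85% and 13.8% were higher and lower between 45% and 50%, 15.2% and 8.7% between 50% and 55%, and 27.2% and 2.32% above 55%. The 11 members called higher had a median GC of 52.2%, the 15 called lower 44.98% and the 21 not called 50.7%. Psmc6, with the lowest GC content at 36.97%, was among the largest falls, and Psmd3, with the highest at 58.3%, was higher, but Psmd4 fell at 54.9%.

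Across the 47 members the GC content and the log2 fold change at 18 against 10 cycles had a Pearson correlation of 0.445 and a Spearman correlation of 0.437. With a mean of at least 50 normalized counts, Pearson's value was 0.523 over 42 members and 0.434 over 8923 protein-coding genes. In 1/8 against whole oocytes, which shares the whole oocytes at 18 cycles, it was -0.504 over 45 members, and at that mean -0.639 over 38 members and -0.473 over 7398 protein-coding genes. At 14 against 10 cycles it was -0.00721 over the 47 members, and at that mean 0.312 over 42 members and 0.0335 over 8923 protein-coding genes. Genes are not independent replicates and share library and depth, so these values are a description, and the part of GC content in the results was not tested.

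**Figure D4:**
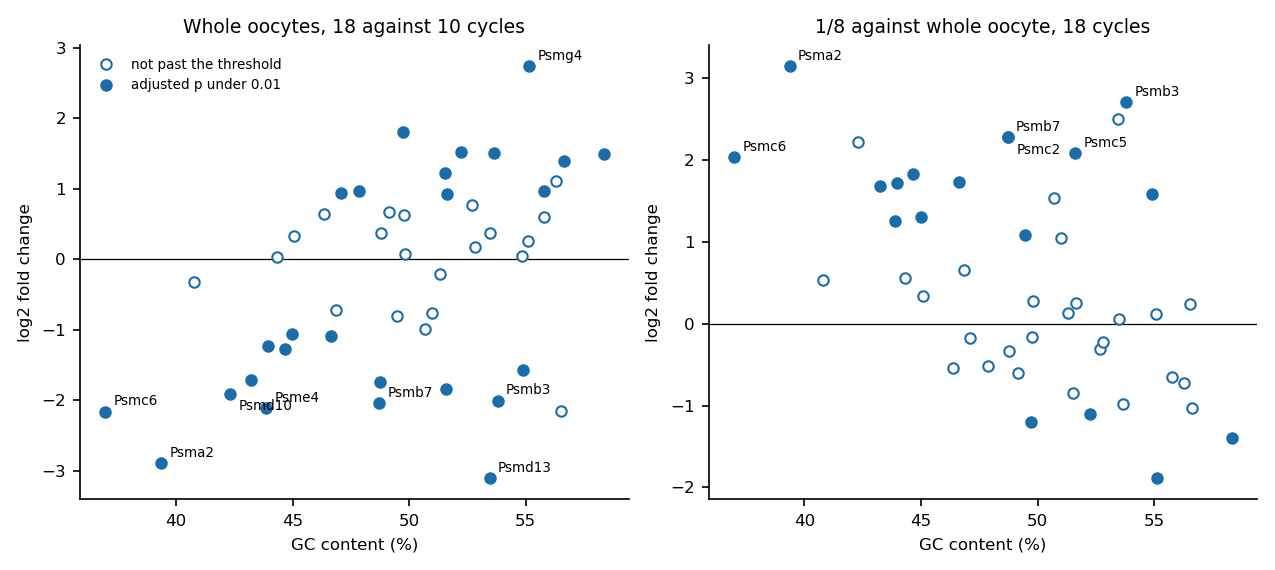
GC content of 1 transcript of each member against its log2 fold change with median ratio size factors, for whole oocytes at 18 against 10 cycles (left) and 1/8 against whole oocytes (right). Filled points pass an adjusted p of 0.01, and ERCC size factors move the median of all genes from -0.29 to 1.96 on the left and from 0.03 to -4.92 on the right, so that 13 of the 15 falls on the left and all 14 rises on the right change sign with that shift.

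Promoters were read because proteasome genes are known to share an element bound by Nfe2l1 and Nfe2l2. The RefSeq promoter table (GRCm38.p6, 250 bases before to 50 after the gene start) held 45 promoters of 42 members. The letters TGACNNNGC, searched on both strands, were found in 6 of the 45 member promoters, or 13.3%, and in 12.4% of all 32851 promoters. CCAAT was found in 33.3% of member promoters and 37.4% of all, and GGGCGG in 53.3% and 35.7%, both also on both strands. A match is a description, not a site or a cause.

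The 6 matches to TGACNNNGC are shown in 30-base windows on the strand of the gene, because they are the members with this element among the 42 searched and lie among genes of both directions. Capitals mark the element, which stands as its reverse complement in Psmc6, Psmd12 and Psme4. In Psmd9 it overlaps the letters of GGGCGG on the opposite strand. The windows are at chr14:54618023-54618052 (Psmb5), chr11:70525338-70525367 (Psmb6), chr14:45329587-45329616 (Psmc6), chr11:107479278-107479307 (Psmd12), chr5:123228149-123228178 (Psmd9) and chr11:30771758-30771787 (Psme4).
Psmb5: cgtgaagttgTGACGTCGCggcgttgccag
Psmb6: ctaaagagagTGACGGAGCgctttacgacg
Psmc6: ccagccagtaGCTAAGTCAggcattgctca
Psmd12: tctGCTGTGTCAcatttgcccccctcagac
Psmd9: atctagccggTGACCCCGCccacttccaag
Psme4: cgctgcggctGCAGCGTCAccagaagagcc
The element begins 47 bases before the RefSeq gene start of the promoter table in Psmb5, 9 in Psmb6, 227 in Psmc6, 247 in Psmd12, 31 in Psmd9 and 7 in Psme4. The GENCODE start can differ: that of Psme4 is at 30771726 and that of Psmd9 at 123169413, each before its window. Both of these windows thus lie inside the gene as GENCODE annotates it, that of Psmd9 far from the start. In the cycle comparison Psmb5 and Psmb6 were higher, Psmc6 and Psme4 were lower, and Psmd9 and Psmd12 were not called. With ERCC size factors Psmc6 and Psme4 were near 0, at 0.06 (SE 0.44) and 0.02 (SE 0.40).

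The 3′ ends were read because oocytes store messages whose poly(A) tails are lengthened through the cytoplasmic polyadenylation element, and the RNA was captured by its tail. Only genes with an annotated 3′ end and at least 100 bases after the stop codon were searched, which left 39 members and 19334 protein-coding genes. The letters TTTTAT or TTTTAAT, searched on the strand of the transcript only, were found in the last 100 bases of 5 of these members, or 12.8%. They were found in 17.9% of these protein-coding genes. The 5 windows of 30 bases are shown because they are the members with a match, with the letters in capitals, from GRCm38 at chr7:114264649-114264678 (Psma1), chr3:108279920-108279949 (Psma5), chr17:15475021-15475050 (Psmb1), chr16:95979956-95979985 (Psmg1) and chr5:139823610-139823639 (Psmg3).
Psma1: gtTTTTATatgaagaaaataagtgtctttg
Psma5: ttTTTTATgaagtctgtacataacagcaat
Psmb1: ttttTTTTAATaaacttctgttctgatttc
Psmg1: taTTTTATtctggcttgggatgttttgaga
Psmg3: ttTTTTATtaaaaataaatctaaagtactt
The letters begin 71, 53, 26, 51 and 46 bases from the 3′ end in Psma1, Psma5, Psmb1, Psmg1 and Psmg3, and in Psmb1 they overlap the polyadenylation signal AATAAA. In the cycle comparison Psma1 and Psmb1 were lower and changed sign with ERCC size factors, Psmg1 was higher, and Psma5 and Psmg3 were not called. A match of these letters says nothing of the length of a tail, which was not measured.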

How the data were processed

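Counts per gene were deposited by the authors, who by their processing notes trimmed reads with cutadapt 2.5, checked them with FastQC 0.11.8, aligned them with STAR 2.7.2a to mm10 with GENCODE release 21 (GRCm38), handled them with SAMtools 1.9 and counted with HTSeq 0.9.1, using R 3.5.1 and DESeq2 1.24.0 for their own tests. Here the 6 whole oocytes and the 8 libraries at 18 cycles were fitted apart, with all 12 used for 1/8 against 10 cycles; genes reaching 5 counts in no fewer than 2 libraries were tested with edgeR 4.0.16 in R 4.3.3 (DESeq2 1.42.0 as alternative) at an adjusted p of 0.01. Depth was 1702062 to 13806199 gene counts, with 6.90% to 10.8% of reads on no feature and 2.64% to 4.53% ambiguous. Strand is not marked by the kit, while the default of HTSeq, which the paper names for another version, uses it; which applied was not settled from these counts, so opposite-strand overlapping genes cannot be told apart. Alternatives were other filters, TMM, ERCC scaling, a replicate block, another reference and leaving out 1 library. The fits were tested on simulated counts. Members and lists were chosen with earlier results of these data known. Genes were named as the 4 largest changes per direction that passed with a mean of at least 50 normalized counts, and otherwise by role. Some genes of the pathway list are not reported here by name.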

Additional observations from a re-analysis of the deposited data

Results flagged for a closer look

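Pseudogenes of 3 catalytic subunits had counts of their own and are not among the members described. Their highest count in a library was 5 for Psmb5-ps, 7 for Psmb6-ps2 and 24 for Psmb7-ps2, each above the 3 counts that a count of 0 allows, which is why they are given here. Whether these reads came from the pseudogenes or from the subunit genes was not tested.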

How the results depend on the processing

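Members called in 1/2 against whole oocytes were 5 by DESeq2 (133 of 14788 genes) and 4 with no filter (218 of 24294 genes). They were 0 with TMM (1 of 14788 genes) and 0 with all 6 whole oocytes as the reference (0 of 18041 genes). Each of the 2 calls of the main fit was lost without at least 1 library. In 1/4 the members called were 3 by DESeq2 (239 of 14788 genes) and 3 with no filter (205 of 24294 genes). In 1/8 they were 0 with all 6 whole oocytes and 8 to 13 with 1 library left out. DESeq2 called 9 in 1/8 against 1/2 (1399 of 14788 genes), and leaving out 1 library lowered the counts of members and of all genes. Leaving out 1 library gave 11 to 26 for 18 against 10 cycles and 11 to 27 for 18 against 14 cycles, where the lone sample was assumed to vary like the other groups. With ERCC scaling and all 6 whole oocytes, 0, 0 and 21 were called in 1/2, 1/4 and 1/8, and leaving out 1 library gave 0 to 30 in 1/2. DESeq2 and no filter gave 1 and 1 in 1/8 against whole oocytes at 10 cycles, beside 40 of 18041 and 84 of 30194 genes. Leaving out 1 library changed the count of all genes too in each comparison where the count of members changed. Where the fewest members were called, fewer of all genes were also called than in the main fit. The changes with 1 library left out are thus not particular to the members.

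With the replicate block, 27 members were called at 18 against 10 cycles (4379 of 17532 genes) and 27 in 1/2 with ERCC scaling (8366 of 14788 genes). Between whole oocytes the numbers share only a label, and the labels do not say if fractions with 1 number share an oocyte. ERCC scaling, which shifts all genes, left the log2 fold changes of Psmc6 at 0.0579 (SE 0.44) and of Psme4 at 0.0223 (SE 0.40) at 18 against 10 cycles, near 0 and not called. Each of the 16 named results was set against several alternatives. Over all of these pairs of result and alternative, 136 were the same, 21 weaker and 2 reversed in sign. The 2 were Psmc6 and Psme4, at these values near 0. ERCC scaling was counted only for 18 against 10 cycles, and the cause was not tested. The 4 named rises in 1/8 were below 0 with ERCC scaling, from -2.79 to -1.71.

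Summed levels with reads on no feature and ambiguous reads added were 6089, 6071, 5738 and 7832 CPM at 10, 14 and 18 cycles and in 1/8. Without the 100 genes with the most counts they were 8523, 8625, 7412 and 9091 CPM, with 8936 CPM in 1/2 and 6901 CPM in 1/4. A mean of at least 50 and the length of 1 transcript were alternatives chosen after seeing the data.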
